A study of Arabidopsis thaliana with 36 samples.

Results

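Starch synthesis in the Arabidopsis leaf was followed through 10 genes, of 33279 loci in the deposited table, chosen by locus identifier as named enzymes of the pathway. They were the plastid phosphoglucomutase PGM1 (AT5G51820), 3 subunits of ADP-glucose pyrophosphorylase (the small subunit ADG1, AT5G48300, and the large subunits APL1, AT5G19220, and APL3, AT4G39210), the granule-bound starch synthase GBSS1 (AT1G32900), the soluble starch synthases SS1 (AT5G24300), SS2 (AT3G01180), SS3 (AT1G11720) and SS4 (AT4G18240), and the branching enzyme SBE2.1 (AT2G36390). Polyadenylated RNA was sequenced from leaves of wild-type Col-0 plants (rosette leaves 3 and 4 in the sample labels, the third leaf in the series text), which were either 21 or 35 days old, counted from sowing (DAS). Samples were taken at ZT1, 5, 9, 13, 17 and 21, where ZT counts hours from lights on. Lights went off at ZT16, so that ZT17 and ZT21 were dark. Every age and time was covered by 3 libraries, 36 in all, numbered as batches in the sample titles and called biological replicates in the series text. The comparison asks how the level and the daily course of each gene changed between the younger and the older leaf. The 10 genes were chosen with earlier results of these data known.

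Leaf starch is made in the chloroplast by day and degraded at night, when it feeds the plant with sugars. PGM1 converts glucose 6-phosphate to glucose 1-phosphate, and ADP-glucose pyrophosphorylase turns this into ADP-glucose, the glucosyl donor of all starch synthases and the committed step of the pathway. The soluble synthases and the branching enzymes build amylopectin, and GBSS1 makes amylose inside the granule. Plants without PGM1 or ADG1 are nearly starchless.

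Values are FPKM (fragments per kilobase of transcript, scaled to the depth of the library), summed over the transcripts of a locus, and a level can be compared between genes on this scale. Tests used limma on log2(FPKM + 1) with all 36 libraries, adjusted by Benjamini-Hochberg over 18729 genes, and a gene is said to be called, to rise or to fall where the adjusted p was under 0.05. Differences between ages are given as log2 fold changes, 35 minus 21 DAS, ± SE. Since 1 is added before the logarithm, changes of values near 0 FPKM are understated. All 10 genes passed the filter of 1 FPKM or more in at least 3 libraries. Steps between low values put the depth of the libraries at 7.50 to 17.99 M fragments (M for mega), with a median of 9.72 M, so that the lowest value among the 10 genes, 1.16 FPKM for GBSS1, corresponds to about 32 fragments. All genes tested had a median age effect of 0.39 on the log2 scale, and of 0.04 after the libraries were rescaled by median-of-ratios size factors. Values after this rescaling are given beside calls and directions that changed with it. P-values weigh differences between group means against the spread between these libraries.

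With age the pathway genes parted. PGM1, ADG1, APL1, SS1, SS3 and SS4 fell, GBSS1, APL3 and SBE2.1 rose, and SS2 was not called. The 3 genes that rose and the 6 that fell stand against 64.5% and 23.2% of all genes, with 87.7% called in either direction. The median over the 10 genes was −0.32, against 0.39 over all genes tested. After rescaling, 2 rose and 8 fell, against 42.2% and 38.8% of all genes (81.1% called), with a median of −0.72, because SBE2.1 turned to −0.17 and SS2 was called at −0.51. The directions of GBSS1 and APL3 and of the 6 genes that fell were the same under both scalings. These effects average log2 values over the times, and the mean FPKM of GBSS1 was 185 at 21 DAS and 202 at 35 DAS. In whole leaves, fewer cells of a type and less RNA per cell cannot be told apart.

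**Figure D1:**
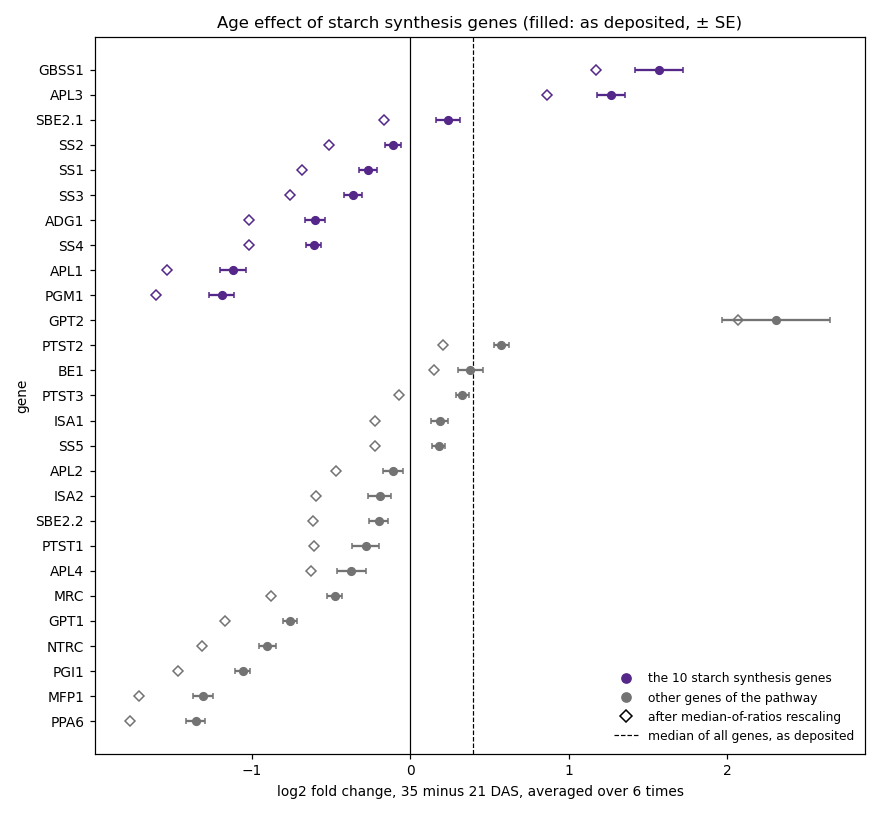
Age effect of the 10 starch synthesis genes and of 17 other genes of the pathway, as log2 fold change of 35 minus 21 DAS averaged over the 6 times (x axis), with filled points ± SE for the values as deposited, open diamonds for the values after median-of-ratios rescaling and a dashed line at the median of all genes. GBSS1 (1.57) and APL3 (1.27) lie to the right of the dashed line, and SBE2.1 crosses 0 with rescaling.

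The genes also differed in the hour at which they were most abundant, and the promoters of 4 of them are shown because their daily profiles lay together or opposite. SS4, SBE2.1 and PGM1 were highest at ZT9 or ZT13 and low at ZT1, and GBSS1 was highest at ZT1. Each sequence runs 5′ to 3′ from 250 bases before to 10 bases after the transcript start that RefSeq annotates on TAIR10.1, and capitals mark a match to a motif.
GBSS1, chr1:11923857-11924116, minus strand: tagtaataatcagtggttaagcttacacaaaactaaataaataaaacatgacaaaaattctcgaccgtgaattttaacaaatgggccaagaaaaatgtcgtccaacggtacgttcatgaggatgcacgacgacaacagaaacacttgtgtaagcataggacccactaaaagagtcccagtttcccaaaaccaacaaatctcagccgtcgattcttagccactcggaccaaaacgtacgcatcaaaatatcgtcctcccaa
SS4, chr4:10081858-10082117, plus strand: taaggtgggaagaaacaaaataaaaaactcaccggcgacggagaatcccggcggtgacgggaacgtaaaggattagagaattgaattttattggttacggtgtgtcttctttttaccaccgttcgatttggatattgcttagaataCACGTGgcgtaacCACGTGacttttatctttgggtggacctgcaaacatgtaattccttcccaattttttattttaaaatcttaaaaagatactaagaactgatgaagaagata
SBE2.1, chr2:15263961-15264220, plus strand: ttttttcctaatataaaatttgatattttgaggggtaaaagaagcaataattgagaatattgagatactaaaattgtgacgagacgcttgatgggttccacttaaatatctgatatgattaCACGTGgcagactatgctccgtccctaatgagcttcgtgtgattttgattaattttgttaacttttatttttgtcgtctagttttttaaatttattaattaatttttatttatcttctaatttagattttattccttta
PGM1, chr5:21068318-21068577, minus strand: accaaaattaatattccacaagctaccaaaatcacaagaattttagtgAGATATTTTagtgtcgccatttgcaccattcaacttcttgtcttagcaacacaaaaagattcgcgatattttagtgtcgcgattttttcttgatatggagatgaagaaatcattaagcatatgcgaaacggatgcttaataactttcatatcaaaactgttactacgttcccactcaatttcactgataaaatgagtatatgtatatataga

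The motifs searched, on both strands of the window from 250 bases before to 50 bases after each start, were the G-box CACGTG, the evening element AAAATATCT, the CCA1-binding site AAAAATCT and the TBX motif AAACCCT. The G-box reads the same on both strands, and no letters were shared between matches to different motifs. SS4 holds the G-box at −104 and −91, and SBE2.1 holds it at −129. SS1 and SS3, not printed, hold it at −156 and −247. These 4 of the 10 promoters compare with 8.95% of 18150 promoters of the same length. The capitals in PGM1 at −202 are the evening element on the opposite strand, found in 1 of the 10 promoters and in 3.16% of all. The TBX motif was found in APL1 at +25 and in 9.26% of all promoters. The CCA1-binding site was in none of the 10 and in 8.27% of all, and the window of GBSS1 held none of the 4 motifs. A match is a run of letters in this window and was not tested as a binding site.

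PGM1 (chromosome 5, 21063368 to 21068057, minus strand) fell at every time of day. At 21 DAS its libraries held 73.2, 73.2 and 80.1 FPKM at ZT1, 57.0, 57.8 and 54.1 at ZT5, 169, 153 and 146 at ZT9, 178, 209 and 214 at ZT13, 124, 125 and 153 at ZT17, and 99.6, 114 and 106 at ZT21. Those of 35 DAS held 30.4, 36.4 and 40.2 FPKM at ZT1, 30.5, 32.9 and 27.8 at ZT5, 55.0, 76.6 and 75.6 at ZT9, 108, 55.3 and 57.5 at ZT13, 49.5, 57.0 and 55.1 at ZT17, and 33.1, 59.8 and 43.2 at ZT21. The older libraries lay below the younger at all 6 times, and the closest pair was at ZT5, where the lowest library of 21 DAS was 1.64 times the highest of 35 DAS. The age effect was −1.19 ± 0.08 (18 libraries per age, limma adjusted p = 2.01e-14), and ranged from −0.87 at ZT5 to −1.50 at ZT13. Its daily order was kept in the means, with ZT13 highest (200 and 73.7 FPKM at 21 and 35 DAS) and ZT5 lowest (56.3 and 30.4 FPKM), although at 35 DAS every pair of neighbours in that order overlapped. A difference of the age effect between times was not called (F test, adjusted p = 0.373), but was called (0.0259) without replicate 1 of 35 DAS at ZT13, which held 108 FPKM.

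ADG1 (chromosome 5, 19570240 to 19572804, plus strand), the catalytic small subunit of ADP-glucose pyrophosphorylase, was the most abundant subunit in the mean over the day at both ages and fell with age. Its 18 libraries of 21 DAS ran from 209 to 333 FPKM with a median of 259, and those of 35 DAS from 106 to 245 with a median of 172. The 2 ages did not overlap at any time but ZT9, where the younger libraries held 281, 260 and 229 FPKM and the older 151, 226 and 245. With age ADG1 fell by 0.60 ± 0.06 on the log2 scale (limma adjusted p = 5.26e-10). The fall was widest at ZT21, where the younger mean was 1.98 times the older and levels fell from 257, 285 and 241 FPKM to 125, 165 and 106, and ZT9 was not called (−0.33, adjusted p = 0.0527), though it was without replicate 3 of 35 DAS at that hour (−0.47, 0.0141) and after rescaling (−0.81, 0.000158). ADG1 changed little over the day. Means ran from 226 FPKM at ZT5 to 311 at ZT17 at 21 DAS, which was not called (F test, adjusted p = 0.0508), and from 132 at ZT21 to 207 at ZT9 at 35 DAS, which was called (adjusted p = 0.00146). At both ages each time overlapped its neighbour in the order of levels. Without replicate number 3 the call at 35 DAS was lost (adjusted p = 0.113). The 24-h cosine of ADG1 at 21 DAS had an amplitude of 0.23 on the log2 scale as deposited and of 0.0156 after rescaling, so that its daily course at that age rests on the scaling.

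The large subunits moved in opposite directions. APL1 (chromosome 5, 6463824 to 6466831, minus strand), known as the main large subunit of leaves, fell from a median of 188 FPKM (151 to 267 over 18 libraries) to 89.1 (51.8 to 153). The 2 ages were apart at every time, and came closest at ZT13, with 152, 181 and 177 FPKM against 112, 51.8 and 88.4. Over the 6 times APL1 fell by 1.12 ± 0.08 (limma adjusted p = 6.77e-13), with effects from −0.84 at ZT5 to −1.36 at ZT9, and no difference between times was called (adjusted p = 0.641). APL1 was highest at ZT5 at both ages, with 246, 267 and 249 FPKM at 21 DAS and 138, 153 and 134 at 35 DAS, apart from the next time in both. The other 5 times overlapped their neighbours in order. AT5G19221, a locus of the opposite strand, shares 2116 bases with APL1 at a mean of 0.399 and 0.885 FPKM at 21 and 35 DAS, and reads of 1 could count for the other, since no strand setting is given in the sources used here. RH58 (AT5G19210), a helicase gene, shares 43 bases.

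APL3 (chromosome 4, 18259609 to 18263417, plus strand), a large subunit known for induction by sugars, rose. At 21 DAS its libraries held 18.5, 26.0 and 15.6 FPKM at ZT1, 19.0, 20.1 and 21.8 at ZT5, 16.8, 18.9 and 16.2 at ZT9, 45.6, 42.4 and 47.1 at ZT13, 33.2, 33.5 and 35.0 at ZT17, and 15.8, 13.5 and 15.0 at ZT21. Those of 35 DAS held 125, 139 and 127 FPKM at ZT1, 27.2, 27.5 and 31.1 at ZT5, 28.1, 43.1 and 83.7 at ZT9, 66.9, 61.2 and 70.7 at ZT13, 37.3, 62.3 and 52.1 at ZT17, and 65.5, 58.9 and 59.6 at ZT21. All older libraries lay above all younger ones at each of the 6 times, with the widest gap at ZT1 and the narrowest at ZT17. APL3 rose by 1.27 ± 0.09 (limma adjusted p = 1.66e-13), and its size depended on the hour (F test of the difference between times, adjusted p = 7.26e-06).

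At ZT1 the mean of APL3 was 6.51 times that of 21 DAS (log2 fold change 2.67 ± 0.22), at ZT21 it was 4.16 times (1.99), and at ZT9 2.98 times (1.38), where replicate 3 held 83.7 FPKM and the mean without it was 2.06 times that of 21 DAS (0.97, still called). The effects at ZT13 (0.55) and ZT17 (0.53) were called as deposited but lost in 10 and 9 of 47 alternatives, rescaling among them, and that at ZT5 (0.47) was not called (adjusted p = 0.0602) but was in 5 of 47. The hour of the highest level also changed. It was ZT13 at 21 DAS (45.0 ± 2.38 FPKM, SD, n = 3), followed by ZT17 (33.9 ± 1.01), with the other times between 14.7 and 20.3 FPKM. At 35 DAS it was ZT1 (130 ± 7.62 FPKM), apart from ZT13 (66.3 ± 4.78), and ZT5 was lowest in the mean (28.6 ± 2.16), apart from ZT17 but overlapping ZT9, where replicate 1 held 28.1 FPKM.

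Within a library, where scaling cancels, APL3 made up a larger share of the large subunits APL1 to APL4 at 35 DAS, with the limit that reads matching more than 1 of these related genes may be split among them. At ZT1 it was 8.78% ± 2.33 (SD, n = 3) at 21 DAS and 57.3% ± 2.67 at 35 DAS, while APL1 went from 89.1% ± 2.42 to 40.2% ± 2.48. APL3 was therefore above APL1 in all 3 older libraries of that hour, at 1.43 ± 0.158 times its level. Over all times the share of APL3 had a median of 8.58% (5.96 to 20.9, 18 libraries) and 39.4% (14.7 to 60.2). The sum of the 4 large subunits over ADG1 was 0.986 ± 0.0385 at ZT1 at 21 DAS and 1.37 ± 0.104 at 35 DAS, and at ZT5 1.25 ± 0.0875 and 1.20 ± 0.0986. Its medians over all times were 0.867 and 0.974, with ranges that overlapped.

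**Figure D2:**
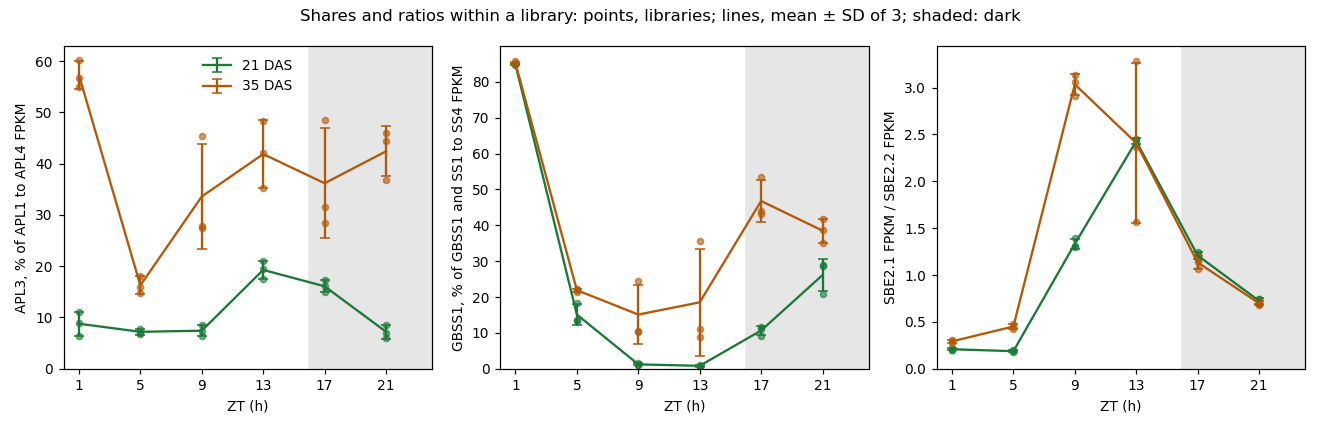
Shares and ratios within each library against time of day (ZT, h): APL3 as a percent of the FPKM of APL1 to APL4 (left), GBSS1 as a percent of the FPKM of GBSS1 and SS1 to SS4 (middle), and the ratio of SBE2.1 to SBE2.2 (right), with points for libraries, lines and bars for the mean ± SD of 3, and the dark hours shaded. At ZT1 APL3 is at 8.78% in the 21 DAS libraries and 57.3% in those of 35 DAS, and GBSS1 is near 85% at both ages.

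GBSS1 (chromosome 1, 11920390 to 11923766, minus strand) had the largest daily swing of the 10 genes, and with age it rose in its low hours while no change was called at its highest. At 21 DAS its libraries held 955, 1053 and 1013 FPKM at ZT1, 25.2, 27.0 and 38.4 at ZT5, 2.40, 3.26 and 2.31 at ZT9, 2.34, 1.16 and 2.07 at ZT13, 18.9, 13.8 and 22.4 at ZT17, and 53.6, 39.3 and 51.0 at ZT21. Those of 35 DAS held 829, 1062 and 908 FPKM at ZT1, 37.6, 39.1 and 42.5 at ZT5, 16.4, 22.6 and 55.2 at ZT9, 15.0, 16.7 and 64.9 at ZT13, 89.8, 157 and 84.9 at ZT17, and 58.3, 61.8 and 73.1 at ZT21. The ages overlapped at ZT1 and ZT5 and were apart at the other 4 times. At ZT9 and ZT13 the lowest older library was still 5.04 and 6.43 times the highest younger one. Replicate 3 of 35 DAS stood above its partners at both of these times.

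The mean of GBSS1 at 35 DAS was 11.8 times that of 21 DAS at ZT9, 17.4 times at ZT13 and 6.02 times at ZT17, with log2 fold changes of 2.97, 3.24 and 2.49 (each ± 0.37). It was not called at ZT1 (−0.12, adjusted p = 0.792), ZT5 (0.41, 0.342) or ZT21 (0.42, 0.307). The last 2 were −0.00155 and −0.05 after rescaling. Averaged over the 6 times, the age effect was 1.57 ± 0.15 (limma adjusted p = 1.32e-10), and it differed between times (F test, adjusted p = 1.26e-05). This average of log2 values gives the low hours the same weight as ZT1. The mean FPKM over the 18 libraries of an age was 185 at 21 DAS and 202 at 35 DAS. The highest mean was 543 times the lowest at 21 DAS and 29.7 times at 35 DAS. Replicate 3 carried much of the older means at the low hours. Without it at ZT13, the mean there was 8.56 times that of 21 DAS (log2 fold change 2.59, still called) and the daily ratio at 35 DAS was 58.8. Without it at ZT9, the mean there was 7.34 times that of 21 DAS (2.48, still called) and the daily ratio was 47.8. A 24-h cosine fitted to the log2 values had an amplitude of 3.67 ± 0.06 (SD over 3 series of libraries with the same number) at 21 DAS and 1.83 ± 0.53 at 35 DAS. These were larger than in 99.9% and 99.4% of genes. The cosine followed the 6 means less closely at 35 DAS (R2 of 0.547) than at 21 DAS (0.857). In order of level, ZT1 was followed at 21 DAS by ZT21, ZT5 and ZT17, each apart from the next, and at 35 DAS by ZT17 and ZT21, with ZT5, ZT13 and ZT9 overlapping at the bottom and replicate 3 of ZT13 within the range of ZT21.

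As a share of the 5 synthases within a library, GBSS1 was 84.9% ± 0.0234 at ZT1 at 21 DAS and 85.3% ± 0.376 at 35 DAS. At ZT13 it was 0.819% ± 0.310 and 18.5% ± 14.8, and at ZT17 10.7% ± 1.34 and 46.8% ± 5.74. Transcripts of the amylose-forming synthase were therefore most of the synthase total soon after lights on at either age, and close to none of it at ZT13 at 21 DAS. The lowest share in an older library was 8.93%, at ZT13.

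**Figure D3:**
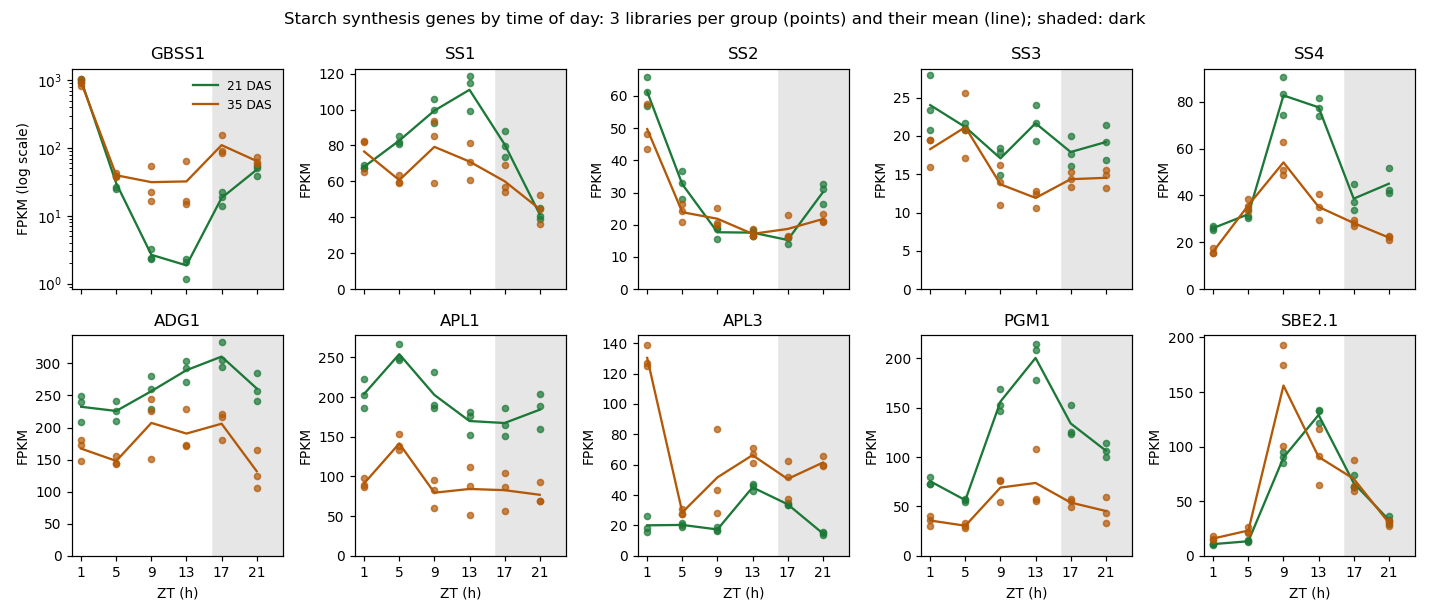
FPKM of the 10 starch synthesis genes against time of day (ZT, h), with a log axis for GBSS1 and linear axes for the others, points for the 3 libraries of each group, lines for their means and the dark hours shaded. GBSS1 of 35 DAS stays above 15 FPKM where that of 21 DAS falls to 1.16, and APL3 is highest at ZT13 at 21 DAS and at ZT1 at 35 DAS.

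The soluble synthases fell or were not called. SS4 (chromosome 4, 10082108 to 10087203, plus strand), known for its part in starting new granules, fell most. At 21 DAS it held 25.3, 26.2 and 26.8 FPKM at ZT1, 30.3, 34.3 and 31.4 at ZT5, 90.4, 83.4 and 74.2 at ZT9, 74.0, 81.6 and 77.2 at ZT13, 37.1, 33.7 and 45.0 at ZT17, and 41.2, 51.6 and 42.2 at ZT21. At 35 DAS it held 15.4, 17.6 and 15.2 FPKM at ZT1, 33.5, 38.5 and 35.5 at ZT5, 48.9, 62.6 and 50.8 at ZT9, 40.7, 35.3 and 29.4 at ZT13, 27.1, 29.4 and 28.2 at ZT17, and 22.1, 22.8 and 21.1 at ZT21. The ages overlapped at ZT5 only, and elsewhere every older library was lower. SS4 fell by 0.61 ± 0.05 (limma adjusted p = 8.93e-13), with log2 fold changes of −1.13 at ZT13 and −0.99 at ZT21 but 0.16 at ZT5, which was not called and was −0.25 after rescaling. The difference between times was called (adjusted p = 1.35e-05). At 21 DAS the levels at ZT9 and ZT13 overlapped at the top, whereas at 35 DAS ZT9 was apart from ZT5 and ZT13. The fitted peak was at 12.1 ± 0.425 h at 21 DAS and 10.2 ± 0.417 h at 35 DAS, and at 10.9 and 9.54 h after rescaling. Of the 4 soluble synthases within a library, SS4 was 33.0% ± 1.67 (SD, n = 3) at ZT21 at 21 DAS and 21.5% ± 2.08 at 35 DAS, and 19.0% ± 0.651 and 25.3% ± 1.75 at ZT5, with the libraries of the ages apart at both hours and in opposite directions.

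SS1 (chromosome 5, 8266790 to 8271205, plus strand), which extends short amylopectin chains, was the most abundant soluble synthase in the mean at both ages. It ran from 38.9 to 119 FPKM at 21 DAS (median 81.4) and from 36.5 to 93.7 at 35 DAS (median 62.3). Its age effect was −0.27 ± 0.06 (limma adjusted p = 9.35e-05). Levels fell at ZT13 from 99.4, 119 and 115 FPKM to 81.6, 70.6 and 60.9 (−0.64), and also at ZT5 (−0.44), ZT9 (−0.35) and ZT17 (−0.42). The ages overlapped at ZT1, ZT9 and ZT21. ZT1 (0.16) and ZT21 (0.08) were not called as deposited and were called lower after rescaling (−0.38 and −0.39). At 21 DAS SS1 was highest at ZT13 and ZT9, which overlapped, and at 35 DAS the order from ZT9 (79.2 FPKM) to ZT17 (60.1 FPKM) held 5 times that all overlapped their neighbours, with ZT21 apart below. The difference of the age effect between times was called (adjusted p = 0.00922), but not after rescaling or without replicate number 2 or 3 (0.150, 0.0958 and 0.311). The value of SS1 is a sum over 2 transcripts whose split varied between libraries, with AT5G24300.1 at 38.9 to 85.5% of the locus at 21 DAS and 26.1 to 75.3% at 35 DAS, and with the more abundant transcript alone the difference between times was not called either.

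SS2 (chromosome 3, 62245 to 65845, minus strand), which extends chains of intermediate length, had the same highest hour as GBSS1 but another order of the other hours. It was highest at ZT1, with 56.8, 65.9 and 61.2 FPKM at 21 DAS and 48.1, 57.4 and 43.6 at 35 DAS, apart from all other times at both ages. From there it fell to 16.1, 13.9 and 15.8 FPKM at ZT17 at 21 DAS and to 18.6, 16.5 and 16.4 at ZT13 at 35 DAS. Over the 6 times the age effect was not called (−0.11 ± 0.05, limma adjusted p = 0.0536), while after rescaling it was −0.51. It differed between times (adjusted p = 0.00284). SS2 fell at ZT1 (−0.30), ZT5 (−0.43) and ZT21 (−0.44) and rose at ZT9 (0.29, adjusted p = 0.0481), where the value after rescaling was −0.17 and the call was lost in 26 of 47 alternatives. The fall at ZT21, from 32.7, 31.0 and 26.4 FPKM to 20.8, 23.4 and 21.1, left the libraries apart.

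SS3 (chromosome 1, 3951553 to 3957044, plus strand), which makes long chains, was the least abundant soluble synthase in the mean at both ages, and at 21 DAS varied least over the day among the synthases. Its libraries ran from 14.9 to 27.9 FPKM at 21 DAS (median 20.4) and from 10.6 to 25.5 at 35 DAS (median 15.1). Its age effect was −0.36 ± 0.06 (limma adjusted p = 1.12e-06). It was widest at ZT13 (−0.81), where 19.3, 21.7 and 24.0 FPKM became 12.4, 12.8 and 10.6, and at ZT5 the deposited means were equal at 21.1 FPKM (−0.02). ZT5 was called lower after rescaling (−0.42, adjusted p = 0.0192), as was ZT17 (−0.30 as deposited and not called, −0.62 after rescaling). At 21 DAS every time overlapped its neighbour in the order of levels, and at 35 DAS ZT5 and ZT1 overlapped at the top, with ZT1 apart from ZT21, the next in order, but not from ZT9. The difference between times was called at an adjusted p of 0.0446, and was lost in 24 of 47 alternatives, rescaling and the lack of replicate number 2 or 3 among them.

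SBE2.1 (chromosome 2, 15264237 to 15270092, plus strand), a branching enzyme that creates the side chains of amylopectin, had the second largest daily swing. At 21 DAS its libraries held 9.74, 11.2 and 11.1 FPKM at ZT1, 13.4, 14.2 and 12.3 at ZT5, 95.0, 90.1 and 84.9 at ZT9, 121, 133 and 133 at ZT13, 63.2, 62.7 and 74.0 at ZT17, and 29.5, 36.3 and 32.9 at ZT21. Those of 35 DAS held 15.2, 18.1 and 14.1 FPKM at ZT1, 21.1, 21.7 and 26.5 at ZT5, 100, 175 and 193 at ZT9, 91.0, 116 and 64.6 at ZT13, 64.0, 87.8 and 59.7 at ZT17, and 32.3, 31.3 and 27.0 at ZT21. Older libraries lay above younger ones at ZT1, ZT5 and ZT9 and below them at ZT13, and the ages overlapped in the dark. The highest hour was ZT13 at 21 DAS, apart from ZT9, and in the mean ZT9 at 35 DAS, where the 2 hours overlapped. Log2 fold changes were 0.52 at ZT1, 0.75 at ZT5, 0.73 at ZT9 and −0.54 at ZT13, each ± 0.19 and called, and the difference between times was called (adjusted p = 0.0011). The rises at ZT1, ZT5 and ZT9 were 0.02, 0.36 and 0.26 after rescaling and not called, while ZT21 was called lower at −0.58. The call at ZT1 was also lost without replicate 1 of 21 DAS or replicate 2 of 35 DAS at that hour (0.46 and 0.43), and the fall at ZT13 was −0.32 and not called without replicate 3 of 35 DAS. The mean over times, 0.23 ± 0.08 (limma adjusted p = 0.00543), was −0.17 after rescaling, and 0.16 and not called without replicate number 2.

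Set against SBE2.2, its close relative, with which it may share reads, within the same library, SBE2.1 was at 1.33 ± 0.0503 (SD, n = 3) times the level at ZT9 at 21 DAS and at 3.03 ± 0.114 times at 35 DAS. At ZT5 the ratio was 0.187 ± 0.0121 and 0.451 ± 0.0236, and at ZT13 2.43 ± 0.0302 and 2.41 ± 0.858. The libraries of the 2 ages were apart at ZT1, ZT5 and ZT9 and overlapped at the other 3 times. SBE2.1 shares 5 bases with GRF3 (AT2G36400) on the opposite strand, a growth-regulating factor gene with a mean of 1.35 FPKM at 21 DAS and 7.64 at 35 DAS.

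Counted by hour, an age effect was called in 8 of the 10 genes at ZT1 and in 6 at ZT5, when 70.5% and 63.5% of all genes were. Of the 10, 9 were called at ZT9 and 9 at ZT13, not the same 9, against 69.9% and 57.7%. In the dark 7 were called at ZT17 and 7 at ZT21, again not the same 7, against 64.4% and 71.4%. Falls outnumbered rises at each hour as deposited and after rescaling, whereas over all genes rises outnumbered falls as deposited. After rescaling, falls over all genes were 31.1, 27, 29.8, 26, 28.2 and 29.8% in order from ZT1 to ZT21. Rises were 29.4, 24, 27.6, 26.1, 26.9 and 27.9%, so that neither direction led by much over all genes. With every library brought to the same sum of FPKM, ZT9 had 4 rises and 3 falls. At ZT1, 2 rose and 6 fell, against 53.2% and 17.3% of all genes. At ZT5, 1 rose and 5 fell, against 48.3% and 15.2%. At ZT9, 4 rose and 5 fell, against 52.2% and 17.7%. GBSS1, APL3, SBE2.1 and SS2 were the 4 that rose at ZT9. At ZT13, 2 rose and 7 fell, against 39.7% and 18% of all genes. At ZT17, 2 rose and 5 fell, against 46% and 18.5%. At ZT21, APL3 alone rose and 6 fell, against 53% and 18.4%.

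**Figure D4:**
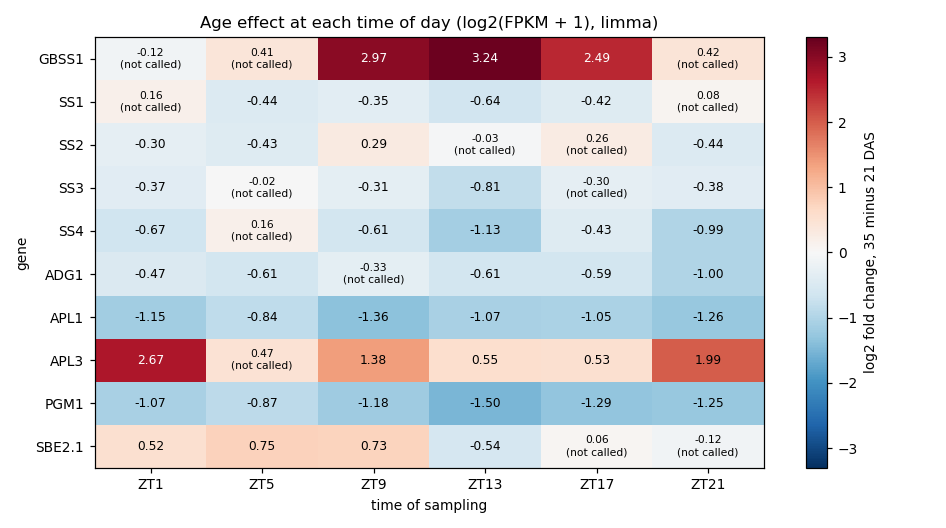
Age effect of each gene at each time of day, as log2 fold change of 35 minus 21 DAS on log2(FPKM + 1) values (colour and number), where cells marked as not called had an adjusted p of 0.05 or more. GBSS1 is highest at ZT9, ZT13 and ZT17 (2.97, 3.24 and 2.49) and APL3 at ZT1 and ZT21 (2.67 and 1.99), while APL1 and PGM1 are below 0 at all 6 times.

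A change over the day was called for 8 genes at 21 DAS (79.3% of all genes) and for all 10 at 35 DAS (75% of all genes). ADG1 and APL1 were the exceptions at 21 DAS (adjusted p = 0.0508 and 0.0828), and after rescaling 9 were called, APL1 included (adjusted p = 0.00156). The daily profile differed between ages in 7 genes (39.7% of all genes), with ADG1, APL1 and PGM1 not called. After rescaling 5 were called (37.3% of all genes), without SS1 and SS3. The series title names a night pattern, so the age effect in the dark (ZT17 and ZT21) was set against that in the light. It differed in none of the 10 genes (limma adjusted p under 0.05; 15.8% of all genes), and in 2 at an unadjusted p under 0.05, ADG1 (−0.29 ± 0.13) and SBE2.1 (−0.39 ± 0.16). The rise of GBSS1 spanned both light and dark hours, at ZT9, ZT13 and ZT17, and that of APL3 was widest at ZT21 and ZT1.

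Daily profiles were compared over the 6 means of an age as a description. PGM1 and SBE2.1 ran together at both ages (Pearson r = 0.96 at 21 DAS and 0.93 at 35 DAS), as did SS4 and SBE2.1 (0.89 and 0.79) and GBSS1 and SS2 (0.90 and 0.87). GBSS1 and SS2 shared ZT1 as the highest hour but parted at ZT17. From ZT13 to ZT17 at 21 DAS, GBSS1 went from 1.86 to 18.4 FPKM and SS2 from 17.6 to 15.3. At 35 DAS, ZT17 had rank 2 in the means of GBSS1 (111 FPKM) and rank 5 in those of SS2 (18.7). GBSS1 and SS4 ran opposite (−0.88 and −0.85). APL3 and GBSS1 changed from −0.42 at 21 DAS to 0.75 at 35 DAS, where both were highest at ZT1. All pairs share their libraries, and each r has 6 points. The older libraries of a group spread more for some genes, with a median SD on the log2 scale of 0.10 at 21 DAS and 0.23 at 35 DAS for both PGM1 and SBE2.1, and of 0.14 and 0.29 for APL1, while for SS4 it was 0.12 and 0.10.

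Among 13457 genes that averaged 5 FPKM or more, those whose 12 means, centred within each age, were most like a member were named. For GBSS1 they were MES11 (AT3G29770, r = 0.98), AT2G41120 (0.97) and AT3G27350 (0.96). SS2 was most like the sulfate transporter gene SULTR3;1 (0.99), AT2G24545 and CCR1 (both 0.98). For PGM1 the nearest were the clock gene PRR3, the metallothionein MT2A and AT4G33700 (all 0.98), and for SBE2.1 AT5G39410, the plastid envelope gene OEP16-1 and AT3G27210 (all 0.98). SS4 was nearest to the plastid sodium transporter gene NHD1 (0.97), AT1G64890 (0.96) and IGMT5 (0.95). APL3 was nearest to AT2G20560 (0.94), AT4G28480 and VIK (both 0.93), SS1 to AT3G57890 (0.95), AT1G06210 (0.93) and AT1G57590 (0.91), and SS3 to NAC083 (0.89), AT1G56500 (0.87) and NIK2 (0.83).

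Of 18 other genes of starch synthesis, a list also chosen with earlier results of these data known, 17 were tested. APS2, at a mean of 0.167 and 0.0586 FPKM, was not. With age 10 fell, 6 rose and APL2 was not called (−0.11), with a median of −0.20, against shares of 23.2% and 64.5% of all genes. After rescaling 13 fell and 2 rose, against 38.8% and 42.2% of all genes. On the supply side, the plastid phosphoglucose isomerase PGI1, which precedes PGM1, fell by 1.06 ± 0.05 on the log2 scale, and the plastid pyrophosphatase PPA6, which removes the pyrophosphate released by ADP-glucose pyrophosphorylase, fell by 1.36 ± 0.06. The thioredoxin reductase NTRC, a redox activator of ADP-glucose pyrophosphorylase, fell by 0.90 ± 0.05. GPT1, a glucose 6-phosphate carrier of the plastid envelope, fell by 0.76 ± 0.04, and its relative GPT2 rose by 2.31 ± 0.34. GPT2 was at or below 2.97 FPKM in all libraries of 21 DAS and uneven at 35 DAS, from 0.406 to 34.0 FPKM, with both the lowest and the highest library at ZT13.

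Genes that act with the synthases also parted. PTST1, which brings GBSS1 to the granule, fell by 0.28 ± 0.09. Among the proteins that help start granules beside SS4, MFP1 fell by 1.31 ± 0.07 and MRC by 0.48 ± 0.05, while PTST2 rose by 0.57 ± 0.05 and PTST3 by 0.33 ± 0.04. The branching enzyme SBE2.2 fell by 0.20 ± 0.06, and BE1, a gene of low level related to branching enzymes, rose by 0.38 ± 0.08. The debranching enzyme ISA1 rose by 0.18 ± 0.05 and its partner ISA2 fell by 0.19 ± 0.07. APL4 fell by 0.37 ± 0.09, and SS5, a synthase-like gene, rose by 0.18 ± 0.04. ISA1 (−0.22), SS5 (−0.22) and PTST3 (−0.07) turned after rescaling, and GPT2 and PTST2 were the 2 that still rose.

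The leaf markers RBCS1A, LHCB1.1 and CA1 all fell over the 6 times. Their summed level was 19244 to 37357 FPKM (median 29241) at 21 DAS and 2805 to 12289 FPKM (median 6167) at 35 DAS. Most of it was RBCS1A, with means of 20553 and 5048 FPKM. LHCB1.1 ran from 15.9 to 7964 FPKM at 21 DAS and from 8.08 to 3441 at 35 DAS, and was not called at ZT13 (0.12). All 5 guard cell markers fell, from a summed median of 97.0 to 39.1 FPKM, with ranges of 67.9 to 161 and 28.6 to 85.3. GC1 carried most of the change in the sum, with means of 64.8 and 17.2 FPKM. Means went from 17.4 to 11.9 FPKM for KAT1, 8.97 to 7.59 for FAMA, 7.31 to 4.67 for MYB60 and 2.69 to 1.72 for HT1. Of 4 phloem markers 2 rose and 2 fell (summed ranges 543 to 1330 and 495 to 1367 FPKM), and of 3 epidermal markers tested 2 fell (405 to 853 and 37.7 to 214 FPKM). Both root markers tested rose at a low level, with a summed median of 1.63 and 4.77 FPKM. Of the flower markers AG was tested and fell, with the list at or under 2.07 FPKM in sum, and the root hair gene RHD6 and the seed genes CRU3 and OLEO1 were at 0 in every library. The markers of photosynthetic cells fell together with the 6 starch genes that fell, and their part in those results was not tested. GBSS1 and APL3 rose in the same leaves in which these markers fell, and a part of cell types in that was not tested either.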

How the data were processed

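Leaves of 2 ages at 6 times of day were sequenced, with 3 libraries each. Per the submitters' processing notes, the tools were STAR 2.3.0e, HTSeq and edgeR 3.12.1 with the TAIR10 genome; the step from reads to the deposited FPKM values and any strand setting are not given in the sources used here. The authors deposited FPKM for 41342 transcripts, without counts. The columns marked Y and O were read as the younger and older age. FPKM was summed per locus to 33279 loci, log2(FPKM + 1) was taken, and genes that reached 1 FPKM in 3 libraries were tested. limma 3.58.1 (R 4.3.3) fitted 12 group means with a mean-variance trend, with Benjamini-Hochberg adjustment over 18729 genes and a threshold of 0.05. The fit was checked on simulated data. Contrasts were age over all times and at each time, and the age effect in the dark against that in the light; F tests covered time of day and age by time. Depth was estimated from the smallest steps between values of 3128 single-transcript genes of at least 1500 bases, and limits values near 1 FPKM. Every result was recomputed under 47 alternatives: 2 other scalings, a pseudocount of 0.1, no filter or one of 5 FPKM, the highest transcript of each locus, array weights, a replicate block, and each replicate number and each library left out. No pair of libraries was identical. Promoters came from RefSeq TAIR10.1; all 27978 loci compared overlapped the locus of the same identifier there. All 10 members were described, other pathway genes were named where called, and the 3 genes most like each member with a daily change at both ages were named. The members and lists were chosen with earlier results of these data known. Python 3.11.15, numpy 2.4.6, pandas 2.3.3 and matplotlib 3.10.9 were used.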

Additional observations from a re-analysis of the deposited data

Results flagged for a closer look

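The age effect of 7 of the 10 genes differed between times of day by limma's F test over all 36 libraries. The adjusted p was 1.26e-05 for GBSS1, whose log2 fold change ran from −0.12 at ZT1 to 3.24 at ZT13. For APL3 it was 7.26e-06, with 0.47 at ZT5 and 2.67 at ZT1. SS4 had 1.35e-05, with 0.16 at ZT5 and −1.13 at ZT13, and SBE2.1 had 0.0011, with 0.75 at ZT5 and −0.54 at ZT13. For SS2 it was 0.00284, with −0.44 at ZT21 and 0.29 at ZT9. For SS1 it was 0.00922, with −0.64 at ZT13 and 0.16 at ZT1, and for SS3 0.0446, with −0.81 at ZT13 and −0.02 at ZT5; the calls of SS1 and SS3 were lost after rescaling.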

How the results depend on the processing

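Of the 3 rises and 6 falls with age, all kept their direction under the 47 alternatives except SBE2.1, which was −0.17 after median-of-ratios rescaling. That rescaling left 2 of the other pathway genes higher and turned ISA1 (−0.22), SS5 (−0.22) and PTST3 (−0.073). At single times it turned SS1 at ZT1 (−0.38) and ZT21 (−0.39), GBSS1 at ZT5 (−0.00155) and ZT21 (−0.048), SS4 at ZT5 (−0.25), SS2 at ZT9 (−0.17) and ZT17 (−0.070), and SBE2.1 at ZT17 (−0.28). An equal sum of FPKM gave 0.046 for SS3 at ZT5. The highest transcript of each locus gave 0.0016 for it, and −0.19 and −0.15 for SS1 at ZT1 and ZT21. Array weights gave 0.020 for GBSS1 at ZT1 and 2 genes with a different age effect in the dark. The cause of these turns was not tested. With replicates left out, the genes called numbered 5 to 8 at ZT1, 4 to 8 at ZT17, 3 to 8 for a difference between times, and 0 to 2 for dark against light. Small effects changed sign, from −0.16 to 0.12 for SS3 at ZT5, −0.088 to 0.025 for SS2 at ZT13, −0.14 to 0.25 for SBE2.1 at ZT17 and −0.041 to 0.22 for SS1 at ZT21.

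With a replicate block, 3 genes rose and 7 fell, since SS2 was called at −0.11. Between libraries of different groups, deviations from the group mean correlated at a mean of 0.00856 (−0.473 to 0.582) for equal replicate numbers. For unequal numbers the mean was −0.00445 (−0.599 to 0.569). These means run over both ages and all hours, and cannot show whether equal numbers pair within an age or between neighbouring hours. Depth limits values near 1 FPKM, such as GBSS1 at ZT9 and ZT13 at 21 DAS. Reads that could come from a paralog (APL1 to APL4, SBE2.1 and SBE2.2) may be split between them.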

Other observations

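The older libraries were uneven at some hours, and some of the genes that stood out shared libraries. Replicate 3 of 35 DAS at ZT9 held the highest value of its group for GBSS1 (55.2 FPKM), APL3 (83.7) and the carrier gene GPT2 (24.9). At ZT13 replicate 3 was again highest for GBSS1 (64.9), APL3 (70.7) and GPT2 (34.0), and was lowest for SBE2.1 (64.6). APL3 spanned only 61.2 to 70.7 FPKM there. Other genes were extreme in other libraries of ZT13, with PGM1 highest in replicate 1 (108) and APL1 lowest in replicate 2 (51.8). Over all genes, limma gave replicate 3 the highest array weight of its group at ZT9 (0.98) and ZT13 (0.69).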
